A study of Mus musculus with 16 samples.

Results

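The genes described here are those of the colony-stimulating factor system of myeloid cells that the deposited table lists: the ligand gene Csf1 and the receptor genes Csf1r, Csf2ra, Csf2rb, Csf2rb2 and Csf3r. They were chosen by symbol, without use of a measured value, though earlier results of these data were known. They are 6 of the 13085 genes in the table. The RNA came from monocytes of C57BL/6 mice that were NFAM1+/+ or NFAM1-/-, the latter carrying a germline CRISPR deletion of exons 2 and 3 of Nfam1, a gene for an immunoreceptor with a signalling motif in its tail. The cells were cultured for 6 or 24 h, either without stimulus or with IFN-γ, given 1 h ahead, plus MegaCD40L at 1 µg/mL, a multimeric form of CD40 ligand. The labels name IFN-γ at 100 µg/mL, and the study's methods for sequencing name another dose. The labels call the cells blood monocytes, whereas the methods describe isolation from bone marrow. Age and sex of the mice are not given in the sources used here. Each of the 8 groups of genotype, stimulus and time holds 2 libraries, so each of the 4 conditions of stimulus and time holds 4 libraries and the series 16. The study used several mice of each genotype for this experiment, but no source used here ties a library to a mouse or says whether mice were pooled, so p-values measure the spread between these libraries, which may be technical in part.

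Before any genotype result, 4 of the 16 libraries need a remark. All are from 24 h (libraries 44 and 46 without and 56 and 58 with stimulus), and their titles name the opposite genotype to their genotype tag. Here the title is followed, and the groups are called "titled NFAM1+/+" and "titled NFAM1-/-". Nfam1 itself was lower in the libraries titled NFAM1-/- without overlap in 3 of the 4 conditions. With so few libraries a group such gaps are common: at 24 h with stimulus 48.2% of all genes tested did not overlap between the titled groups. The count therefore does not settle which label is right. At 6 h without stimulus it stood at 432 and 408 CPM (reads per 1000000 of a scaled library size) in the libraries titled NFAM1+/+ and at 299 and 321 CPM in those titled NFAM1-/-. With stimulus at 6 h, the values of 133 and 129 CPM overlapped those of 135 and 127 CPM. Grouped by the tag instead, the Nfam1 values of the genotypes overlapped in both conditions of 24 h. No Nfam1 difference passed an adjusted p of 0.05 by limma, the lowest being 0.0514 for unstimulated cells at 6 h, and the gene-level count also includes reads outside the deleted exons. Depth ranged from 48295939 to 88514341 reads over the genes of the table. All 7 monocyte markers examined were listed, with a summed level of 19580 to 26820 CPM without and 6628 to 10840 CPM with stimulus. Most of the unstimulated sum was Lyz2, at 15690 to 17380 CPM at 6 h, and the genes did not move as a set. With stimulus at 6 h Ly6c2 went from 345 to 503 CPM to 2200 to 2505 CPM, and Fcgr1 from 28.0 to 35.9 CPM to 620 to 760 CPM. Lyz2, Ccr2, Cd14, Cx3cr1 and Itgam were lower with stimulus at 6 h. No gene of the 3-gene T cell and NK cell lists is in the table, and of 3 B cell genes only Cd79a is, at no more than 1.22 CPM.

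As background, CSF-1, also called M-CSF, binds the receptor tyrosine kinase encoded by Csf1r, and this signal sustains the survival and maturation of monocytes and macrophages. GM-CSF, the product of Csf2, binds a receptor of a private α chain, encoded by Csf2ra, and a shared β chain that carries the signal through JAK2 and STAT5. In the mouse there are 2 such β genes: Csf2rb encodes the β chain common to the receptors for GM-CSF, IL-3 and IL-5, while Csf2rb2 encodes a close relative that works with the IL-3 receptor α chain. The receptor for G-CSF, encoded by Csf3r, is best known for its role in neutrophils and is also present on monocytes.

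In the GENCODE vM21 annotation of GRCm38, which is an older build than the GRCm39 named in the submitters' processing notes, the positions were as follows. Csf1 spans chr3:107741048-107760469 on the minus strand, Csf2ra spans chr19:61223957-61228429 on the minus strand and Csf3r spans chr4:126024550-126044440 on the plus strand. The β chain genes are neighbours on chromosome 15, Csf2rb at chr15:78325752-78353847 on the plus strand and Csf2rb2 at chr15:78282507-78305721 on the minus strand. They are near-copies: 2503 of 2628 aligned coding bases were identical, or 95.2%. The first 101 coding bases, the length of a read in this study, are shown to let a reader see how far a read could tell them apart, with the differing bases in capitals.
Csf2rb coding bases 1 to 101: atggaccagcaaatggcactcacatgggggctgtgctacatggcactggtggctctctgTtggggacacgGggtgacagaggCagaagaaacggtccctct
Csf2rb2 coding bases 1 to 101: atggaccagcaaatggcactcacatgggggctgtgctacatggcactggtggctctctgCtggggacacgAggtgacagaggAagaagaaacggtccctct
Over all ungapped windows of that length the median was 3 differences and the highest 18, and 282 of 2128 windows were identical. Of the 101-base stretches of each gene's first annotated transcript, 7.05% for Csf2rb and 7.09% for Csf2rb2 also occur in the other gene. The values of this pair are therefore uncertain to the extent that the counting split or dropped reads from such stretches, and how these were treated is not given in the sources used here.

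The 250 bases before the RefSeq start sites of Csf1 and Csf2rb2 are shown because these were the genes that rose with the stimulus at 6 h. Capitals mark matches, searched on both strands, to the κB motif, to the interferon-γ-activated sequence TTCNNNGAA and to the PU.1 core GAGGAA, none of which overlapped another here.
Csf1 upstream, GRCm38.p6 chr3:107760470-107760719, minus strand: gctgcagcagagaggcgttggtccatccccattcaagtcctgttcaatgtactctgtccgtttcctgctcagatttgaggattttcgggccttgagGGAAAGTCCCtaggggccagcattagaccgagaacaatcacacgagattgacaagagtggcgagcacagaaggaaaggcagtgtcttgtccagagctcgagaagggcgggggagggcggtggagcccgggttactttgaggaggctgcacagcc
Csf2rb2 upstream, GRCm38.p6 chr15:78305722-78305971, minus strand: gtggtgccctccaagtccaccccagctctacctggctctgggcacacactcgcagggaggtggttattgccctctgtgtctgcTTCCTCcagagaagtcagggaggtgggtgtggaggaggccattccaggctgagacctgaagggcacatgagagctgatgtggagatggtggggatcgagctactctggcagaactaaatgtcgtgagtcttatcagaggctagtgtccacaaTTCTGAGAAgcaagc
The Csf1 stretch holds a κB match, GGAAAGTCCC, that begins 154 bases before the start, and 3.90% of 32851 RefSeq upstream stretches of the same length hold such a match. In Csf2rb2 the match TTCTGAGAA begins 15 bases before the start, against 7.02% of all stretches with that motif, and a PU.1 match begins 167 bases before it. For Csf2ra and Csf3r the only matches were to the PU.1 core, at 14 and 8 bases and at 86 bases before the start, a motif found in 23.3% of stretches. A match is a description of the letters and was not tied to any measured binding.

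All levels below are CPM taken back from the deposited log2 values, and a gene is called higher or lower where limma's adjusted p over 12782 genes was below 0.05 and the change at least 2-fold. By this rule the stimulus moved a large share of the transcriptome: at 6 h 19.1% of genes tested were called higher and 20.6% lower, and at 24 h 14.6% and 18.7%. How the libraries were scaled matters for every level. The reads of a library divided by its scaled size came to 0.756 to 0.775 at 6 h and 0.776 to 0.788 at 24 h without stimulus, but to 1.24 to 1.32 at 6 h and 0.970 to 0.997 at 24 h with it. When CPM was recomputed on the library's own sum of reads (own totals), the median log2 change of all genes with stimulus at 6 h went from -0.13 to -0.86 and at 24 h from 0.01 to -0.33, while over time with stimulus it went from 0.04 to 0.41. The share of calls that were higher then went from 48.1% to 21.9% at 6 h, from 43.9% to 30.4% at 24 h, and from 49.0% to 69.3% over time with stimulus. Ratios of 2 genes within a library are free of this choice and are given beside the levels.

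**Figure D1:**
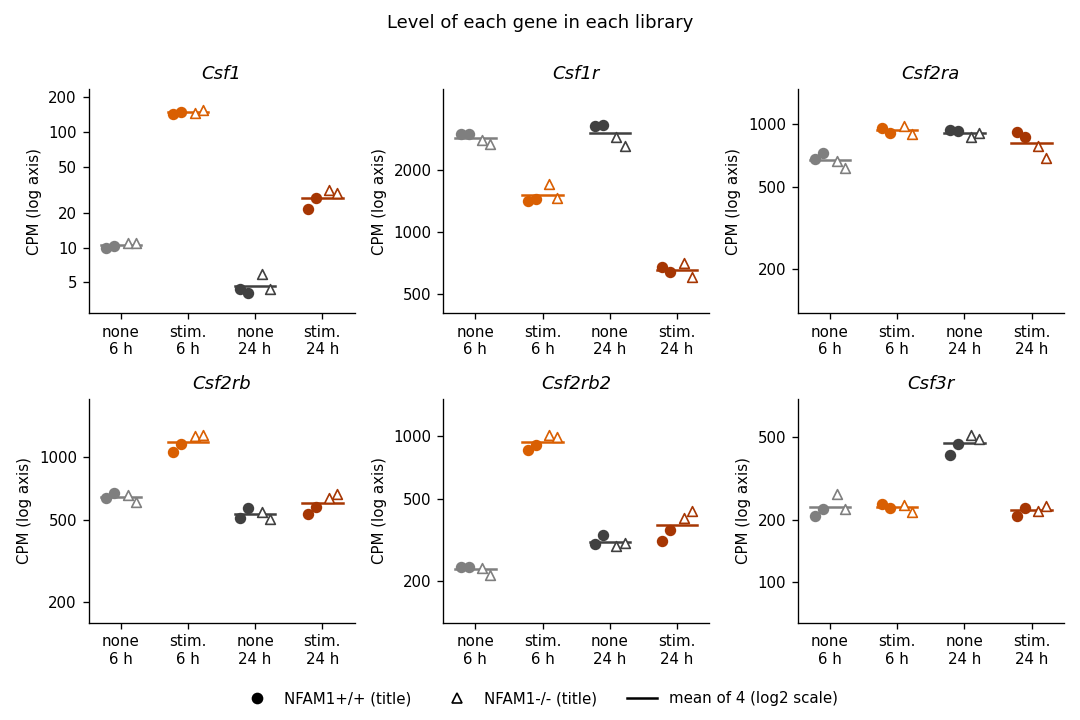
Level in CPM (log axis) of each of the 6 genes in each of the 16 libraries, by condition. Circles are libraries titled NFAM1+/+, triangles those titled NFAM1-/-, and lines the mean of 4 on the log2 scale. Csf1 stood at 143 to 157 CPM in the 4 libraries stimulated for 6 h and at most at 10.9 CPM in the 8 unstimulated libraries, while Csf1r was lower in the 4 libraries stimulated for 24 h, at 605 to 703 CPM, than in any other.

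Csf1, the ligand gene, rose the most of the 6 genes with stimulus at both times. Without stimulus at 6 h it stood at 9.90 and 10.3 CPM in the libraries titled NFAM1+/+ and at 10.9 and 10.8 CPM in those titled NFAM1-/-. With stimulus at 6 h the values were 143, 148, 146 and 157 CPM in the same order of genotype. The 8 libraries of 6 h thus fell into a low and a high set with a wide gap and no overlap. Without stimulus at 24 h Csf1 was at 4.36 and 4.07 CPM in the libraries titled NFAM1+/+ and at 5.88 and 4.36 CPM in those titled NFAM1-/-, and with stimulus at 21.7 and 26.6 CPM and at 31.5 and 29.8 CPM. Again no stimulated library overlapped an unstimulated one. The change was 14.2-fold at 6 h (95% interval 12.3 to 16.3, log2 3.82 ± 0.09 SE, adjusted p = 8.42e-14 by limma, n = 4 a condition) and 5.87-fold at 24 h (5.11 to 6.75, log2 2.55 ± 0.09, adjusted p = 9.18e-12). It remained called higher with all scalings tried, at log2 3.09 to 3.99 at 6 h and 2.22 to 2.68 at 24 h. From 6 to 24 h Csf1 fell in unstimulated cells by 1.18 on the log2 scale and in stimulated cells by 2.45. The 4 conditions therefore stood in the order stimulated 6 h, stimulated 24 h, unstimulated 6 h and unstimulated 24 h, with every neighbouring pair at least 2-fold apart and past the threshold.

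Csf1r, the receptor for this ligand, was among the most abundant transcripts, at or above the 98.1th percentile of the listed genes in every library. At 6 h without stimulus it stood at 2997 and 2979 CPM in the libraries titled NFAM1+/+ and at 2805 and 2665 CPM in those titled NFAM1-/-, and with stimulus at 1410.1 and 1447.5 CPM and at 1701 and 1463 CPM. At 24 h the unstimulated values were 3274 and 3286 CPM and 2902 and 2606 CPM, and the stimulated values 673 and 637 CPM and 703 and 605 CPM. Stimulated libraries were below all unstimulated ones at both times. At 6 h the log2 difference was -0.93 ± 0.07 (adjusted p = 1.45e-08 by limma), which passed the p but not the 2-fold limit, and it was called lower at log2 -1.66 with own-total scaling and -2.17 with quantile normalization. At 24 h Csf1r fell by 2.20 on the log2 scale, or 4.60-fold (4.16 to 5.09, adjusted p = 1.59e-12), and it was called lower with all scalings tried. The unstimulated conditions did not differ beyond their spread, with a log2 difference of 0.07 between 24 and 6 h and a 95% interval of -0.07 to 0.22. With quantile normalization this difference was -0.19.

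With stimulus the ligand was thus higher and its receptor lower. Their ratio within a library gives how they shifted against each other without any scaling, though not the direction of either gene. Csf1 reads came to 0.330% to 0.407% of Csf1r reads without stimulus at 6 h and to 8.56% to 10.7% with it. At 24 h the corresponding values were 0.124% to 0.202% and 3.22% to 4.93%. The ratio was higher with stimulus by 4.75 on the log2 scale at 6 h and by 4.75 at 24 h, a 27.0-fold shift each time. It was lower at 24 h than at 6 h by 1.25 both without and with stimulus. In each of these 4 comparisons the groups did not overlap, and the exact two-sided permutation test of 4 against 4 libraries gave p = 0.0286, the smallest it can give, with an adjusted p of 0.0352 over 16 ratio tests. How many other pairs of genes would separate as the pairs given here do was not counted. By limma's adjusted p alone, 64.4% to 78.3% of all genes passed in these comparisons. Both Csf1 and Csf1r were called lower at 24 h than at 6 h in stimulated cells, Csf1r by 1.20 on the log2 scale (adjusted p = 1.34e-09 by limma), or by 0.83 with own totals and 0.66 with quantile normalization, which are under 2-fold.

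**Figure D2:**
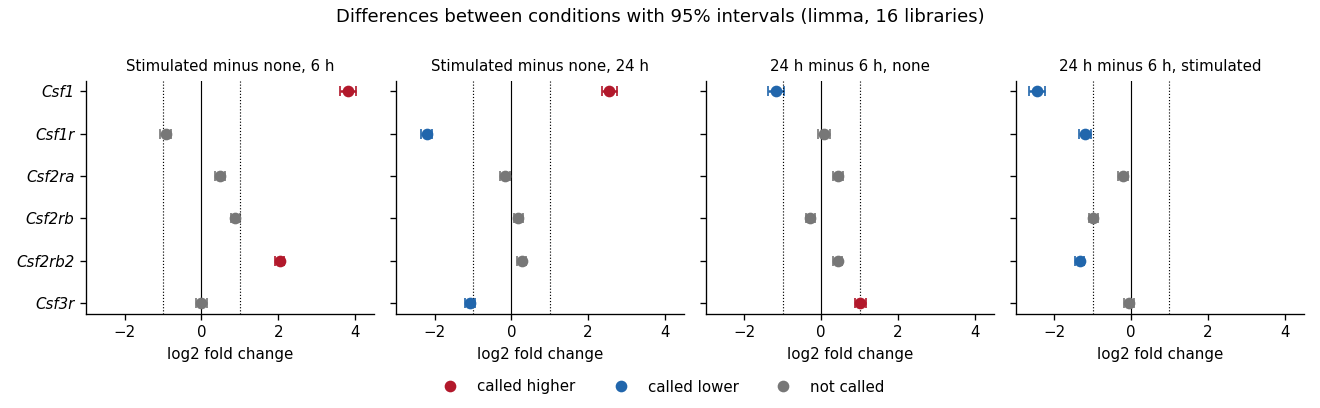
Log2 fold changes of the 6 genes with 95% intervals for stimulus at 6 h, stimulus at 24 h, 24 h against 6 h without stimulus and 24 h against 6 h with stimulus. Solid lines mark no change and dotted lines a 2-fold change. Csf1 (3.82) and Csf2rb2 (2.04) are called higher at 6 h, and at 24 h Csf1 (2.55) is called higher and Csf1r (-2.20) and Csf3r (-1.07) lower.

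Csf2ra, the α chain that gives the GM-CSF receptor its specificity, varied least of the 6 genes on the deposited scale. At 6 h it stood at 677 and 725 CPM in the libraries titled NFAM1+/+ and at 667 and 617 CPM in those titled NFAM1-/- without stimulus, and at 963 and 909 CPM and 983 and 893 CPM with it. At 24 h the unstimulated values were 941 and 926 CPM and 865 and 910.5 CPM, and the stimulated values 918 and 867 CPM and 782 and 689 CPM. On the deposited scale the stimulated libraries were higher at 6 h without overlap, and at 24 h the 2 conditions overlapped. The log2 difference with stimulus was 0.48 ± 0.06 at 6 h (adjusted p = 3.23e-06 by limma) and -0.17 ± 0.06 at 24 h (adjusted p = 0.0168), both under 2-fold. The difference at 6 h depends on the scaling, being -0.25 with own totals (adjusted p = 5.22e-04) and -0.60 with quantile normalization (adjusted p = 1.53e-07), so no direction can be given for Csf2ra at 6 h. Without the 4 libraries of conflicting genotype labels, the difference at 24 h was -0.12 with an adjusted p of 0.240. On the deposited scale stimulated cells at 6 h and unstimulated cells at 24 h held neighbouring levels that did not differ beyond their spread, with a log2 difference of 0.04 and a 95% interval of -0.08 to 0.17. With own totals the same libraries did not overlap, at 707 to 772 CPM against 1115 to 1194 CPM.

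Csf2rb, the common β chain, stood at 637 and 673 CPM in libraries titled NFAM1+/+ and 662 and 606 CPM in those titled NFAM1-/- without stimulus at 6 h. With stimulus at 6 h it was at 1065 and 1162 CPM and at 1261 and 1278 CPM, all above the unstimulated libraries. At 24 h it was at 508 and 569 CPM and 544 and 505 CPM without stimulus, and at 535 and 578 CPM and 636 and 666 CPM with it. These last 2 conditions overlapped. The log2 difference with stimulus was 0.88 ± 0.06 at 6 h (adjusted p = 3.89e-09 by limma, under 2-fold) and 0.18 ± 0.06 at 24 h (adjusted p = 0.0107). At 6 h it was 0.15 with own totals and -0.25 with quantile normalization, and at 24 h it was -0.15 and -0.35, so the sign is a matter of scaling at both times. Without the 4 libraries of conflicting labels the difference at 24 h was 0.13 with an adjusted p of 0.201.

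Csf2rb2, the relative of the β chain that pairs with the IL-3 receptor α chain, rose at 6 h. It stood at 233 and 234 CPM in libraries titled NFAM1+/+ and at 233 and 216 CPM in those titled NFAM1-/- without stimulus, and at 859.7 and 914 CPM and 1013 and 989 CPM with it. The change was 4.12-fold (95% interval 3.80 to 4.46, log2 2.04 ± 0.05, adjusted p = 1.95e-13 by limma), and it was called higher with all scalings tried, at log2 1.11 to 2.21. At 24 h the values were 301 and 334 CPM and 295 and 305 CPM without stimulus, and 313 and 352 CPM and 406 and 435 CPM with it, so that the 2 conditions overlapped. There the log2 difference was 0.28 ± 0.05 (adjusted p = 3.36e-04, under 2-fold), and it was -0.06 with own totals and -0.15 with quantile normalization. From 6 to 24 h with stimulus Csf2rb2 fell by 1.33 on the log2 scale (adjusted p = 5.40e-11), and by 0.96 with own totals, just under 2-fold. In unstimulated cells it differed over the same interval by 0.43 ± 0.05 in the other direction (adjusted p = 9.86e-06, under 2-fold).

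The β chain genes moved unequally, which the ratio within each library shows. Csf2rb2 reads came to 34.8% to 36.6% of Csf2rb reads without stimulus at 6 h and to 77.4% to 80.7% with it. At 24 h the ranges were 54.2% to 60.4% and 58.5% to 65.4%. The ratio was 2.23-fold higher with stimulus at 6 h and 1.63-fold higher at 24 h than at 6 h without stimulus, in both cases without overlap (exact permutation p = 0.0286, adjusted p = 0.0352). For the stimulus at 24 h the ratios overlapped (exact permutation p = 0.143, adjusted p = 0.143). Against the α chain, Csf2rb reads were 92.8% to 99.3% of Csf2ra reads without stimulus at 6 h, 111% to 143% with it, and 54.0% to 62.8% and 58.3% to 96.6% at 24 h. This ratio was 1.32-fold higher with stimulus at 6 h (exact permutation p = 0.0286, adjusted p = 0.0352), and at 24 h the conditions overlapped (exact permutation p = 0.0857, adjusted p = 0.0914). Without stimulus it was lower at 24 h than at 6 h by 0.72 on the log2 scale, and with stimulus by 0.77, again without overlap and with the same p.

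Between Csf1r and Csf2rb, the β chain that the GM-CSF receptor shares with those for IL-3 and IL-5, the balance of reads moved with the stimulus. Csf1r reads were 4.24 to 4.70 times Csf2rb reads without stimulus at 6 h and 5.16 to 6.44 times at 24 h. With stimulus they were 1.14 to 1.35 times at 6 h and 0.908 to 1.26 times at 24 h. The stimulus lowered the ratio 3.51-fold at 6 h and 5.21-fold at 24 h, and neither comparison had overlap (exact permutation p = 0.0286, adjusted p = 0.0352). Over time with stimulus the ratios overlapped (exact permutation p = 0.0857, adjusted p = 0.0914).

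**Figure D3:**
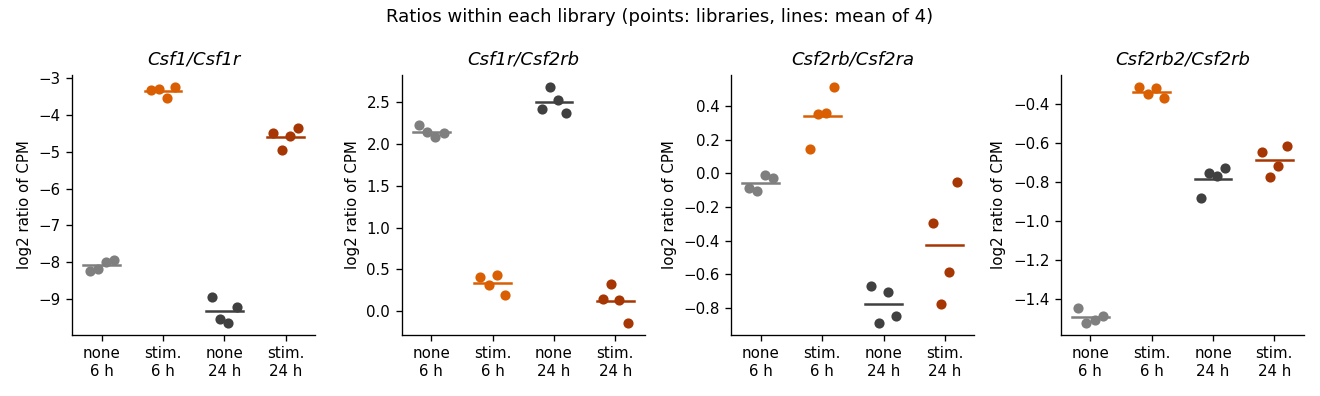
Log2 ratio of CPM of 2 genes within each of the 16 libraries, by condition, for Csf1 over Csf1r, Csf1r over Csf2rb, Csf2rb over Csf2ra and Csf2rb2 over Csf2rb. Points are libraries and lines the mean of 4, and the axes do not start at 0. The Csf1 over Csf1r ratio averages -8.09 and -9.34 without and -3.34 and -4.59 with stimulus at 6 and 24 h.

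Csf3r, the G-CSF receptor, stood apart in unstimulated cells at 24 h. At 6 h it was at 207 and 226 CPM in libraries titled NFAM1+/+ and 265 and 225 CPM in those titled NFAM1-/- without stimulus, and at 239 and 227 CPM and 236 and 218 CPM with it. At 24 h it was at 410.2 and 465 CPM and 510.5 and 491 CPM without stimulus and at 208 and 228 CPM and 219.7 and 233 CPM with it. The 4 unstimulated libraries of 24 h were above the other 12, which covered a common range. Csf3r rose from 6 to 24 h without stimulus by 2.03-fold (95% interval 1.85 to 2.24, log2 1.02 ± 0.06, adjusted p = 9.57e-09 by limma). This is at the edge of the 2-fold limit: the log2 value was 1.00 and under the limit with own totals, and 0.96 to 1.08 with a library left out. The call was lost without library 1 or 4 of unstimulated 6 h or library 45 of unstimulated 24 h. With stimulus at 24 h Csf3r fell 2.11-fold (1.91 to 2.32, adjusted p = 1.92e-09), and by 1.06 to 1.53 on the log2 scale with the other scalings. At 6 h the log2 difference with stimulus was 0.00 with a 95% interval of -0.14 to 0.14, against -0.73 with own totals, -0.74 with quantile normalization and 0.17 with centring on medians. The levels of unstimulated 6 h, stimulated 6 h and stimulated 24 h did not differ beyond their spread on the deposited scale, whereas with own totals they did not overlap, at 269.6 to 345 CPM, 173 to 185 CPM and 209 to 241 CPM.

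The summed level of neutrophil genes was highest in the same condition as Csf3r, though not every gene of the list was. The 8 neutrophil genes examined, all listed, summed to 38.0 to 121 CPM at 6 h and 302 to 528 CPM at 24 h without stimulus, and to 43.2 to 175 CPM and 71.7 to 122 CPM with it. The order of the 4 unstimulated libraries of 24 h was not the same for both: library 43 led both with 510.5 CPM of Csf3r and a sum of 528 CPM, but library 44 had the lowest Csf3r and the second highest sum, 404 CPM. At 6 h library 3 held the highest unstimulated Csf3r, 265 CPM, and the lowest sum, 38.0 CPM. Such orders among 4 libraries are a description and were not tested. Most of the sum came from the granule protein genes Ngp, Ltf and Camp, at 131 to 225 CPM, 104 to 187 CPM and 46.5 to 76.2 CPM in unstimulated cells at 24 h. The primary granule genes Elane and Mpo were not higher there, at 0.0979 to 5.07 CPM and 1.46 to 6.34 CPM against 3.09 to 6.49 CPM and 3.83 to 7.52 CPM at 6 h. Ly6g, a defining neutrophil surface marker, was at 1.32 to 2.22 CPM in unstimulated libraries of 24 h and at 0.213 to 0.618 CPM in those of 6 h. With stimulus at 24 h Ly6g was at 0.941 to 1.86 CPM, which overlapped the unstimulated values of 24 h. Retnlg and Cxcr2 were higher in unstimulated cells at 24 h than in any other library. They stood there at 10.2 to 20.4 CPM and 2.47 to 5.77 CPM, against at most 2.54 CPM and 1.58 CPM elsewhere. Other marker lists moved as well: 4 dendritic cell genes summed to 123 to 264 CPM and 4 macrophage genes to 413 to 582 CPM in unstimulated cells of 24 h, against 44.2 to 57.3 CPM and 287 to 326 CPM at 6 h. Eosinophil, basophil and mast cell genes summed to 7.61 to 99.7 CPM over all libraries. The progenitor genes Kit and Cd34 summed to at most 118 CPM, that maximum being in stimulated cells at 6 h, where Kit stood at 90.7 to 115 CPM. Cd34 went the other way, at 8.37 to 14.8 CPM without and 1.90 to 2.92 CPM with stimulus at 6 h. The part of these other cells in the level of any gene here was not tested, and in bulk RNA fewer cells of a type cannot be told apart from less RNA per cell.

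All 6 genes were tested, and the counts can be read against all genes. With stimulus at 6 h 2 of 6 were called higher, against 19.1% of all genes, and none lower. At 24 h 1 was called higher, against 14.6%, and 2 lower, against 18.7%. From 6 to 24 h without stimulus 1 was called higher, against 13.2%, and 1 lower, against 7.76%. With stimulus 3 were called lower, against 17.2% of all genes, and none higher. With so few members these counts are a description. On the deposited scale the effect of the stimulus was smaller or more negative at 24 h than at 6 h for all 6 genes. Limma's interaction term was at log2 -1.76 for Csf2rb2, -1.27 for Csf1, -1.27 for Csf1r, -1.07 for Csf3r, -0.70 for Csf2rb and -0.65 for Csf2ra. The adjusted p was at most 9.08e-06 and 4 of 6 were called lower, against 18.2% of all genes. By the p alone, 5 of 6 passed with stimulus at 6 h, 6 at 24 h, 5 over time without and 5 with stimulus, and 6 in the interaction, where 78.3%, 74.8%, 64.4%, 76.4% and 67.2% of all genes did. In the interaction only Csf2rb2 passed the 2-fold limit with own totals or quantile normalization.

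**Figure D4:**
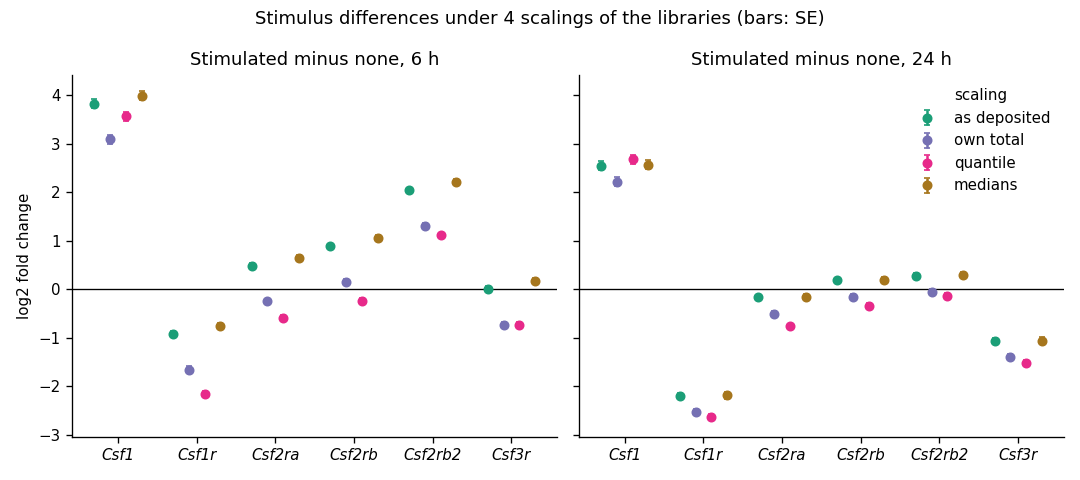
Log2 fold change with stimulus at 6 h and 24 h for the 6 genes with the deposited scaling, own totals, quantile normalization and centring on library medians. Bars are the SE. Csf1 stays above 2 in both panels and Csf1r below -2 at 24 h, while Csf2ra at 6 h lies between -0.60 and 0.65 and Csf2rb at 6 h between -0.25 and 1.05.

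Compared between genes, levels need the transcript length. In CPM per kilobase of the first annotated transcript, unstimulated cells at 6 h held 739 ± 41 of Csf1r, 363 ± 24 of Csf2ra, 135 ± 6 of Csf2rb, 73.1 ± 7.8 of Csf3r, 48.3 ± 1.9 of Csf2rb2 and 2.51 ± 0.12 of Csf1 (SD, n = 4). With stimulus at 6 h the order began with Csf2ra at 507 ± 23, followed by Csf1r at 389 ± 34, Csf2rb at 250.1 ± 20.7 and Csf2rb2 at 199 ± 15, while Csf3r was at 72.8 ± 3.0 and Csf1 at 35.5 ± 1.4. At 24 h with stimulus Csf2ra stood at 440.1 ± 54.3 and Csf1r at 169 ± 11, and without stimulus Csf1r led at 779.6 ± 84.5, with Csf2ra at 492 ± 18. The transcript used in these cells was not measured, so the lengths are those of the annotation. The order depends on the length taken. Per kilobase of all annotated exons of a gene, Csf2rb2 at 199 ± 15 stood above Csf2rb at 164 ± 14 with stimulus at 6 h.

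No gene of the 6 was called between the genotypes in any condition, and few genes were at all: 0.0861% of those tested at 6 h and 0.289% at 24 h without stimulus, and 0% and 0.579% with it, and for genotype by stimulus 0% at 6 h and 0.274% at 24 h. At 6 h without stimulus the log2 differences of NFAM1-/- over NFAM1+/+ lay between -0.13 for Csf1r and 0.18 for Csf3r, and with stimulus between -0.04 for Csf3r and 0.19 for Csf2rb. The adjusted p by limma was at least 0.303 at 6 h. At an unadjusted p under 0.05, limma gave 0 of the 6 genes without and 2 with stimulus at 6 h, against 10.1% and 14.6% of all genes, and 2 and 4 at 24 h, against 10.9% and 15.6%. With voom weights none was called either. At 24 h with stimulus the titles gave 0.34 ± 0.08 for Csf2rb2 (1.27-fold, adjusted p = 0.0421, under 2-fold, where 2.1% of all genes passed that p alone), 0.35 ± 0.13 for Csf1 (adjusted p = 0.200), 0.23 ± 0.08 for Csf2rb (adjusted p = 0.181) and -0.28 ± 0.08 for Csf2ra (adjusted p = 0.0970). In each of these 4 genes, which are those with an unadjusted p under 0.05 there, the values of the 2 titled groups did not overlap, as in 48.2% of all genes tested and 98.4% of the genes at that unadjusted p. With the genotype of the tag, which exchanges the genotypes of libraries 56 and 58, the same differences were -0.13, -0.11, -0.09 and 0.13 with adjusted p of 1.00. Without the 4 conflicting libraries 1 library a group was left at 24 h, and the spread was taken from the 6 h groups. Csf2rb2 then differed by 0.21 ± 0.10 with stimulus, and Csf1 by 0.53 ± 0.13 without stimulus (adjusted p = 0.386). At 24 h without stimulus the titled groups differed by -0.25 ± 0.10 for Csf1r (adjusted p = 0.329) and 0.26 ± 0.13 for Csf1 (adjusted p = 0.507). In limma's terms for genotype by stimulus, the lowest adjusted p was 0.102, for Csf2rb2 at 24 h.

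**Figure D5:**
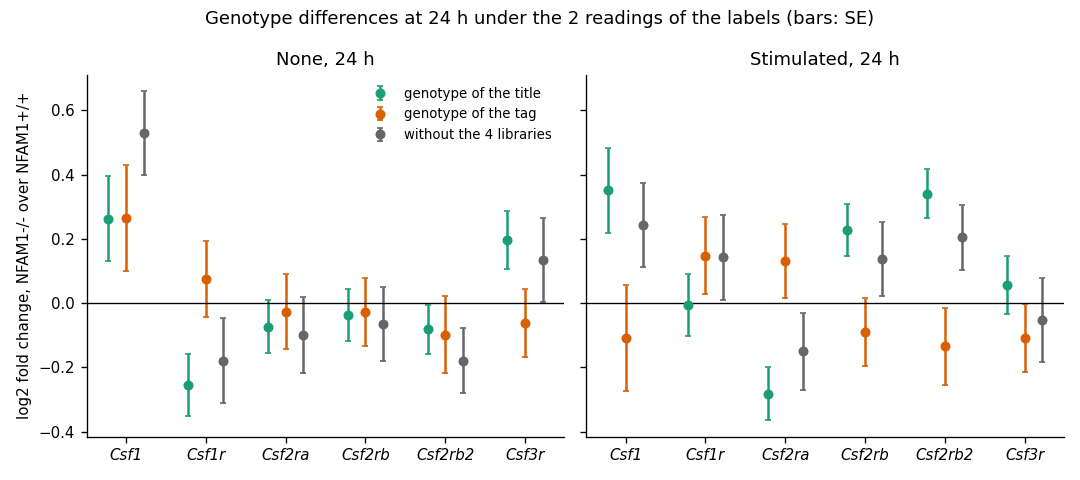
Log2 fold change of NFAM1-/- over NFAM1+/+ for the 6 genes at 24 h without and with stimulus, with the genotype taken from the title, from the tag, and without the 4 libraries in which these disagree. Bars are the SE. With stimulus, Csf2rb2 lies at 0.34 by title, -0.13 by tag and 0.21 without the 4 libraries.

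Of the other ligands and receptor chains of this system, Il34, Csf2, Csf3, Il3, Il5 and Il5ra have no row in the table, so no value is given for them. Il3ra, the α chain of the IL-3 receptor, is listed and rose with stimulus by 1.78 ± 0.08 on the log2 scale at 6 h (adjusted p = 9.34e-11 by limma) and by 1.10 ± 0.08 at 24 h (adjusted p = 2.39e-08). Its level was 29.3 to 37.6 CPM without and 107 to 124 CPM with stimulus at 6 h, so the groups did not overlap. At 24 h with own totals the log2 difference was 0.77, under 2-fold.

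Downstream of the receptors, 16 genes for kinases, adaptors and STAT proteins were examined and all were tested. With stimulus 5 were called higher and none lower at 6 h, against 19.1% and 20.6% of all genes, and 4 higher and 1 lower at 24 h, against 14.6% and 18.7%. The list's median log2 change was 0.45 and 0.12, against -0.13 and 0.01 for all genes. The largest changes at 6 h were in Jak2, the kinase bound to the β chain, at log2 3.25 ± 0.07, and in Stat3, which acts below the G-CSF receptor, at 2.02 ± 0.05. Jak2 was at 145 to 183 CPM without and 1416 to 1889 CPM with stimulus. Under own totals 2 of the 16 were called higher and 3 lower at 6 h, Jak2 and Stat3 being those called higher, and 3 higher and 2 lower at 24 h.

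Among 13 genes that restrain or shed these receptors, 7 were called higher and 1 lower at each time, where 19.1% of all genes were called higher and 20.6% lower at 6 h and 14.6% and 18.7% at 24 h. The list's median log2 change was 2.33 at 6 h and 1.19 at 24 h, against -0.13 and 0.01 for all genes. The SOCS family genes, which are induced by and inhibit JAK signalling, led. Socs1 went from 1.21 to 3.31 CPM (83 to 373 reads) without stimulus to 909 to 1406 CPM with it at 6 h, a log2 change of 9.43 ± 0.23. Cish went from 0.441 to 0.704 CPM (27 to 79 reads) to 28.7 to 33.9 CPM, and Socs3 from 24.4 to 53.8 CPM to 672 to 779 CPM. These 3 were called higher at both times under each scaling tried. With own totals the list still had 7 called higher and 1 lower at 6 h, and 5 and 3 at 24 h.

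Of 8 transcription factor genes known to act on these receptor genes, 3 were called higher and 2 lower at each time, against the same shares of all genes (19.1% and 20.6% at 6 h, 14.6% and 18.7% at 24 h). With own totals 1 was called higher and 2 lower at 6 h, and 2 and 2 at 24 h. Irf8, a factor of monocyte development, was at 234 to 243 CPM without and 2251 to 2625 CPM with stimulus at 6 h. Cebpa, a myeloid factor that acts on Csf3r and Csf1r, was at 135 to 147 CPM without and 28.6 to 31.4 CPM with stimulus at 6 h. At 24 h it was at 400.2 to 544 CPM without and 32.9 to 37.6 CPM with stimulus, and it was called higher from 6 to 24 h in unstimulated cells by 1.67 on the log2 scale. Fli1, an ETS family factor, was called lower with stimulus at 1.37 and 1.34 below the unstimulated level on the log2 scale at 6 and 24 h. With own totals Irf8, Cebpa and Fli1 kept these calls at both times for the stimulus.

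The genes whose means over the 8 groups followed each member most closely were taken by Pearson correlation of log2 CPM, as a description over 8 points. For Csf1 these were Cenpj, Dr1 and Agfg1 (r of 1.00), and for Csf1r Tnfrsf11a, Dbi and Cyth4 (0.99). Csf2rb2 was followed by Med7 (1.00), Il10ra (1.00) and Bco2 (0.99), and Csf3r by Firre (1.00), Ski (0.99) and Tep1 (0.99). Csf2ra had looser neighbours in Aldh1a2 (0.98), Rbm47 (0.96) and Gprasp1 (0.94), of which Aldh1a2 had group means of at most 1.64 CPM. For Csf2rb they were Igkv9-120, Taf4b and Timp1 (0.99), Igkv9-120 having group means of at most 0.164 CPM. The points share the libraries and their scaling, and many genes change with the stimulus, so high values are common.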

How the data were processed

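Poly(A) RNA of 16 mouse monocyte libraries was sequenced as non-stranded paired reads of 101 bases. The authors aligned the reads with STAR, counted them with Rsubread and normalized with edgeR and limma, and deposited log2 CPM for 13085 genes (builds GRCm39 and mm39 in the submitters' processing notes, versions not given in the sources used here). Each deposited log2 value equals log2 of (reads + 0.5)/(scaled size + 1) × 1000000 for a whole number of reads within 0.02, for 100% of values, from which reads and CPM were computed. Strand was not kept, so reads of overlapping antisense genes cannot be told apart. The deposited scaling was kept as the main one.

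Genes with at least 1 CPM in 2 of the 16 libraries (12782) were fitted with limma 3.58.1 in R 4.3.3 (8 groups, 8 residual degrees of freedom, trended prior variance, Benjamini-Hochberg over all genes tested). A call needed an adjusted p under 0.05 and a 2-fold change. Ratios within libraries were tested by exact two-sided permutation (scipy 1.17.1). The fit was tested on simulated data. Alternatives were other filters, scalings, variance models, an added count of 1 CPM, no minimum fold, the genotype of the tag, fewer libraries or groups, and each library left out.

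The genes and lists were chosen with earlier results of these data known. Genes named from lists are those called with the 3 largest changes with stimulus at 6 h, plus all listed ligands and receptor chains, and the markers. Upstream sequences are from RefSeq (GRCm38.p6), and gene positions and transcripts from GENCODE vM21. The upstream stretches of 4 of the 6 genes were examined. Chromosome 18, which holds Csf1r, was left out of this step, and there was none for Csf2rb. Depth was 48295939 to 88514341 reads. Counting error and the spread between libraries were not separated, and counting error is larger for genes with few reads, such as Cish with 27 to 79 reads without stimulus at 6 h.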

Additional observations from a re-analysis of the deposited data

Results flagged for a closer look

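On the deposited scale the effect of the stimulus differed between 6 and 24 h for all 6 genes. This was limma's interaction term, stimulated over unstimulated at 24 h minus the same at 6 h. On the log2 scale it was -1.76 for Csf2rb2 (adjusted p = 4.99e-10), -1.27 for Csf1r (adjusted p = 6.73e-08), -1.07 for Csf3r (adjusted p = 1.93e-07), -1.27 for Csf1 (adjusted p = 1.39e-06), -0.70 for Csf2rb (adjusted p = 3.82e-06) and -0.65 for Csf2ra (adjusted p = 9.08e-06). The interval was below 0 for each, and the term stayed below 0 with each scaling and each library left out. For Csf2rb with quantile normalization, however, the stimulus differences were close, at -0.25 at 6 h and -0.35 at 24 h (SE 0.063 each). For Csf2ra with own totals the level was lower with stimulus at both times. Its means were 736 CPM with against 875 CPM without stimulus at 6 h, and 827 against 1167 CPM at 24 h. The Csf2rb and Csf2ra terms therefore depend on the scaling.

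Of 24 sets of 4 libraries, 6 genes in 4 conditions, 2 had a library far from the others by Dixon's ratio of gap to range at the 95% level, which chance gives in about 1 of 20 sets. In unstimulated cells at 24 h, library 43 held 5.88 CPM of Csf1 against 4.07 to 4.36 CPM in the other 3, a ratio of 0.839. In unstimulated cells at 6 h, library 4 held 216 CPM of Csf2rb2 against 233 to 234 CPM in the other 3, a ratio of 0.921.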

How the results depend on the processing

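No paired analysis was possible because the library numbers in the labels are unique and no number is shared between groups. Scaling had the widest effect. With own totals the log2 changes were, with stimulus at 6 h, -1.66 for Csf1r (now called) and -0.25 for Csf2ra; at 24 h -0.15 for Csf2rb and -0.055 for Csf2rb2; over time 1.00 for Csf3r without stimulus, and with stimulus -0.83 for Csf1r, -0.96 for Csf2rb2, 0.16 for Csf2ra and 0.32 for Csf3r; and in the interaction -0.87 for Csf1, -0.87 for Csf1r and -0.68 for Csf3r. With quantile normalization they were -2.17 for Csf1r, -0.60 for Csf2ra and -0.25 for Csf2rb at 6 h, -0.35 for Csf2rb and -0.15 for Csf2rb2 at 24 h, -0.19 for Csf1r over time without stimulus, -0.66 for Csf1r, -0.78 for Csf2rb2, 0.26 for Csf2ra and 0.32 for Csf3r over time with it, and -0.89 for Csf1, -0.47 for Csf1r and -0.80 for Csf3r in the interaction. Centred on medians, Csf2rb was called at 1.05 at 6 h and at -1.16 over time with stimulus, and Csf3r stood at 0.17 at 6 h. Csf3r at 6 h was 0.000254 with voom weights. The number called was 1 over time without stimulus with own totals, and 1 over time with stimulus and 1 in the interaction with either scaling. Csf2ra between genotypes with stimulus at 6 h was -0.035 when centred on medians, and Csf1r between genotypes with stimulus at 24 h was 0.028 with own totals and 0.034 with quantile normalization.

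Without the minimum fold, 5 genes were called at 6 h (adding Csf1r at -0.93, Csf2ra at 0.48 and Csf2rb at 0.88), 6 at 24 h (adding Csf2ra at -0.17, Csf2rb at 0.18 and Csf2rb2 at 0.28), 5 over time without stimulus (adding Csf2ra at 0.44, Csf2rb at -0.28 and Csf2rb2 at 0.43), 5 over time with stimulus (adding Csf2ra at -0.21 and Csf2rb at -0.98), all 6 in the interaction (adding Csf2ra at -0.65 and Csf2rb at -0.70), and 1 between genotypes with stimulus at 24 h (Csf2rb2). With the genotype of the tag, differences at 24 h turned sign to 0.075 for Csf1r and -0.063 for Csf3r without stimulus; to -0.11 for Csf1, 0.15 for Csf1r, 0.13 for Csf2ra, -0.089 for Csf2rb, -0.13 for Csf2rb2 and -0.11 for Csf3r with it; and in genotype by stimulus to -0.37 for Csf1, 0.16 for Csf2ra, -0.061 for Csf2rb and -0.037 for Csf2rb2. Without the 4 conflicting libraries they turned to 0.14 for Csf1r and -0.052 for Csf3r with stimulus and to -0.29 for Csf1 in genotype by stimulus, and no call for stimulus or time was lost.

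Leaving out 1 library at a time, the range was -0.060 to 0.059 for Csf3r with stimulus at 6 h, 0.96 to 1.08 for Csf3r over time without stimulus (1 to 2 genes called), and -1.01 to -0.95 for Csf2rb over time with stimulus (3 to 4 called, the fourth without library 26 or 57). Between genotypes it was -0.11 to 0.015 for Csf2rb without stimulus at 6 h, -0.00050 to 0.11 for Csf1, -0.068 to 0.071 for Csf2ra and -0.092 to 0.020 for Csf3r with stimulus at 6 h, -0.12 to 0.044 for Csf2rb without stimulus at 24 h, -0.11 to 0.10 for Csf1r and -0.0082 to 0.12 for Csf3r with stimulus at 24 h, and -0.13 to 0.30 for Csf1 in genotype by stimulus at 24 h. The 4 ratios kept their direction, as values with no test since 3 against 4 libraries cannot pass the threshold after adjustment, and also with 1 CPM added. With 2 libraries a group, the SE of a genotype difference in the 6 genes was 0.076 to 0.13 on the log2 scale. The interaction was not refitted on fewer groups because it uses all libraries. The cause of these changes was not tested.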

Other observations

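The lists of genes around these receptors were also compared between 6 and 24 h, where 13.2% of all genes were called higher and 7.76% lower without stimulus, and 16.5% and 17.2% with it. Without stimulus, none of the 16 signal transducer genes was called higher and 2 were called lower by limma, with 12 of 16 at an unadjusted p under 0.05. With stimulus none of the 16 was called in either direction, with 14 at an unadjusted p under 0.05, or 2 called lower when centred on medians. The list's median log2 difference was -0.31, or 0.07 with own totals. Of the 13 restraining and shedding genes, 2 were called higher and 1 lower without stimulus and 1 higher and 4 lower with it. Socs1 stood at 3.06 to 4.55 CPM in unstimulated and 258 to 374 CPM in stimulated libraries at 24 h, and from 6 to 24 h it fell with stimulus by 1.96 on the log2 scale (adjusted p = 2.93e-06). Cish fell with stimulus over the same interval by 2.00 (adjusted p = 2.34e-07). Irf8 fell with stimulus by 1.05 (adjusted p = 1.43e-10) but by 0.68 with own totals, under 2-fold. Over the 8 group means, Pearson's r was 0.91 between Csf1 and Csf2rb, 0.89 between Csf1 and Csf2rb2, 0.89 between Csf2rb and Csf2rb2, and -0.54 between Csf1 and Csf1r, as a description of points that share their scaling.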
